A study of Mus musculus with 20 samples.

Results

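RNA from 10 libraries of mouse T cells kept in culture for the longer of the study's periods was compared, 5 of CD8 cells at week 4 and 5 of CD4 cells at week 3, out of 20 libraries in all. The libraries were chosen by their labelled cell type and week, and every measured gene entered the comparison. The other 10 libraries, 5 of CD8 and 5 of CD4 cells at week 1, served to show which differences were also present early in culture. T cells were taken from spleen and inguinal lymph nodes, enriched for CD8 or CD4, and activated on plates coated with antibodies to CD3 and CD28 in medium with 1 ng/mL IL-2. According to the labels, activation lasted 72 h for polyclonal cells of albino B6 mice and 24 h for receptor-transgenic cells of Marilyn-BLITC and MataHari-BLITC mice, whose T cell receptors are restricted to MHC class II (Marilyn) and class I (MataHari), and no label ties a library to either source. The cells were then expanded in 50 ng/mL IL-15 and 10 ng/mL IL-7, for 25 days (CD8) or 18 days (CD4) in the long cultures and for 4 days in the week 1 cultures. All groups were sorted for the surface type of central memory T cells at a purity above 97%, with Cd44 among the sort markers, so that its protein was part of the selection. The labels give no age of the mice and do not name an animal for any library, so that p-values measure the spread between libraries, which may be technical.

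CD8 and CD4 T cells are the main branches of the alpha-beta T cell lineage. CD8 cells recognise peptides on MHC class I and kill target cells through perforin and granzymes, whereas CD4 cells recognise peptides on MHC class II and direct other immune cells through cytokines and surface ligands such as CD40 ligand. The choice between the branches is held by opposing transcription factors, Zbtb7b (ThPOK) in CD4 cells and Runx3 in CD8 cells. IL-7 and IL-15 are common gamma chain cytokines that keep memory T cells alive and dividing without antigen, and IL-15 is also the main survival factor of natural killer (NK) cells.

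The long-term libraries held 22.9 ± 4.03 M counts in the CD8 group and 23.04 ± 0.656 M in the CD4 group (SD, n = 5 each). Levels are given as CPM, counts scaled to the same total in every library, which are not corrected for gene length, so levels of different genes are not compared. Per-library values are listed in the order of replicates 1 to 5 of each group. Cell type and length of culture changed together, as did the range of sample numbers in the titles, so that a lineage difference cannot be told apart from 25 against 18 days of expansion or from whatever else the title numbers mark. Libraries of each group were not alike. On the leading axis of a principal component analysis, which held 77.43% of the variance of the 1000 most variable genes, CD8 replicates 1 and 2 had scores of 68.6 and 72.5, apart from CD8 replicates 3 to 5 (33.9 to 37.4). CD4 replicate 2 scored -20.2, apart from the remaining CD4 libraries (-66.5 to -49.8). Many results that rest on these libraries are given with and without them, and others by their per-library values only. The T cell markers were high in every library, with 3554 to 4007 summed CPM over 8 genes in CD8 and 2805 to 3156 in CD4 libraries. Levels of markers of other cells differed by list. The 6 neutrophil genes summed to at most 0.0508 CPM in CD8 and 0.0889 CPM in CD4 libraries, and Ms4a1 and Fcer2a of the B cell list were at 0 in both groups. Within that list Ighm, the immunoglobulin mu chain gene, had 113, 74.8, 176, 213 and 213 CPM in CD8 libraries, against 364, 298, 409.9, 408 and 473.8 CPM in CD4 libraries. Cd79b, a chain of the B cell receptor complex, had 1.82, 1.07, 8.95, 6.35 and 6.18 CPM in CD8 libraries, against 0.625, 1.23, 0.471, 0.137 and 0.507 CPM in CD4 libraries. The other 7 B cell markers averaged under 1 CPM in both groups. The 8 dendritic cell markers summed to 8.64 to 75.1 CPM in CD8 and 0.579 to 12.5 CPM in CD4 libraries, with Flt3 at 0 in CD8, Xcr1 at 0 in CD4 and Siglech at 0 in both. In that list H2-Ab1, an MHC class II chain, had 32.7, 39.2, 6.05, 9.85 and 2.31 CPM in CD8 libraries, against 0.670, 11.7, 0.642, 0.0911 and 4.10 CPM in CD4 libraries. H2-Ab1 and Itgax made up most of the sum in CD8 libraries, where the other 6 markers averaged under 1 CPM. In CD4 libraries the 7 markers other than H2-Ab1 did so. H2-Aa, another MHC class II chain, and Cd74 of the same list did not follow H2-Ab1. Both were highest in CD8 replicate 5, at 0.951 and 2.12 CPM, where H2-Ab1 was lowest among CD8 libraries. The 8 monocyte and macrophage markers summed to 4.63 to 23.3 CPM in CD8 and 1.71 to 3.69 CPM in CD4 libraries, most of it from Cd68, a lysosomal protein, with Lyz2 and Fcgr1 at 0 in both groups. H2-Ab1, Cd68 and the integrin gene Itgax were highest in CD8 replicates 1 and 2, the libraries that stood apart. Hba-a1, a haemoglobin gene, had 18.9 CPM in CD4 replicate 2 and at most 1.99 CPM in the other CD4 libraries, and no count in CD8 libraries. The part of other cells in the differences below was not tested further, and in bulk RNA more cells of a type and more RNA per cell cannot be told apart.

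At an adjusted p under 0.05, 4342 of 13290 tested genes (32.7%) differed between the lineages, 2349 (17.7%) higher and 1993 (15.0%) lower in CD8. A difference of at least 2-fold was found for 1174 genes higher (8.83%) and 662 genes lower (4.98%) in CD8, and of at least 8-fold for 347 and 133 genes. For 2737 genes (20.6%) the libraries of the groups did not overlap at all. The median log2 fold change of all tested genes, CD8 over CD4, was 0.005. Without CD8 replicates 1 and 2, in a fit with 3 CD8 libraries, 1383 of 13643 tested genes were higher and 1202 lower. Without CD4 replicate 2, 3018 of 13448 were higher and 2417 lower. List counts of these fits are to be set beside these numbers.

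By share of tested members, the lists most often called higher in CD8 were the killer lectin-like and NK-type receptors (95% of 20), the granule proteins (88.9% of 18) and cholesterol and fatty acid synthesis (65.5% of 29). Those most often called lower were the CD4 helper genes (55.6% of 18), the coreceptors and lineage factors (50% of 20) and the Th2 genes (46.2% of 13). These shares stand against 17.7% higher and 15.0% lower over all tested genes.

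**Figure D1:**
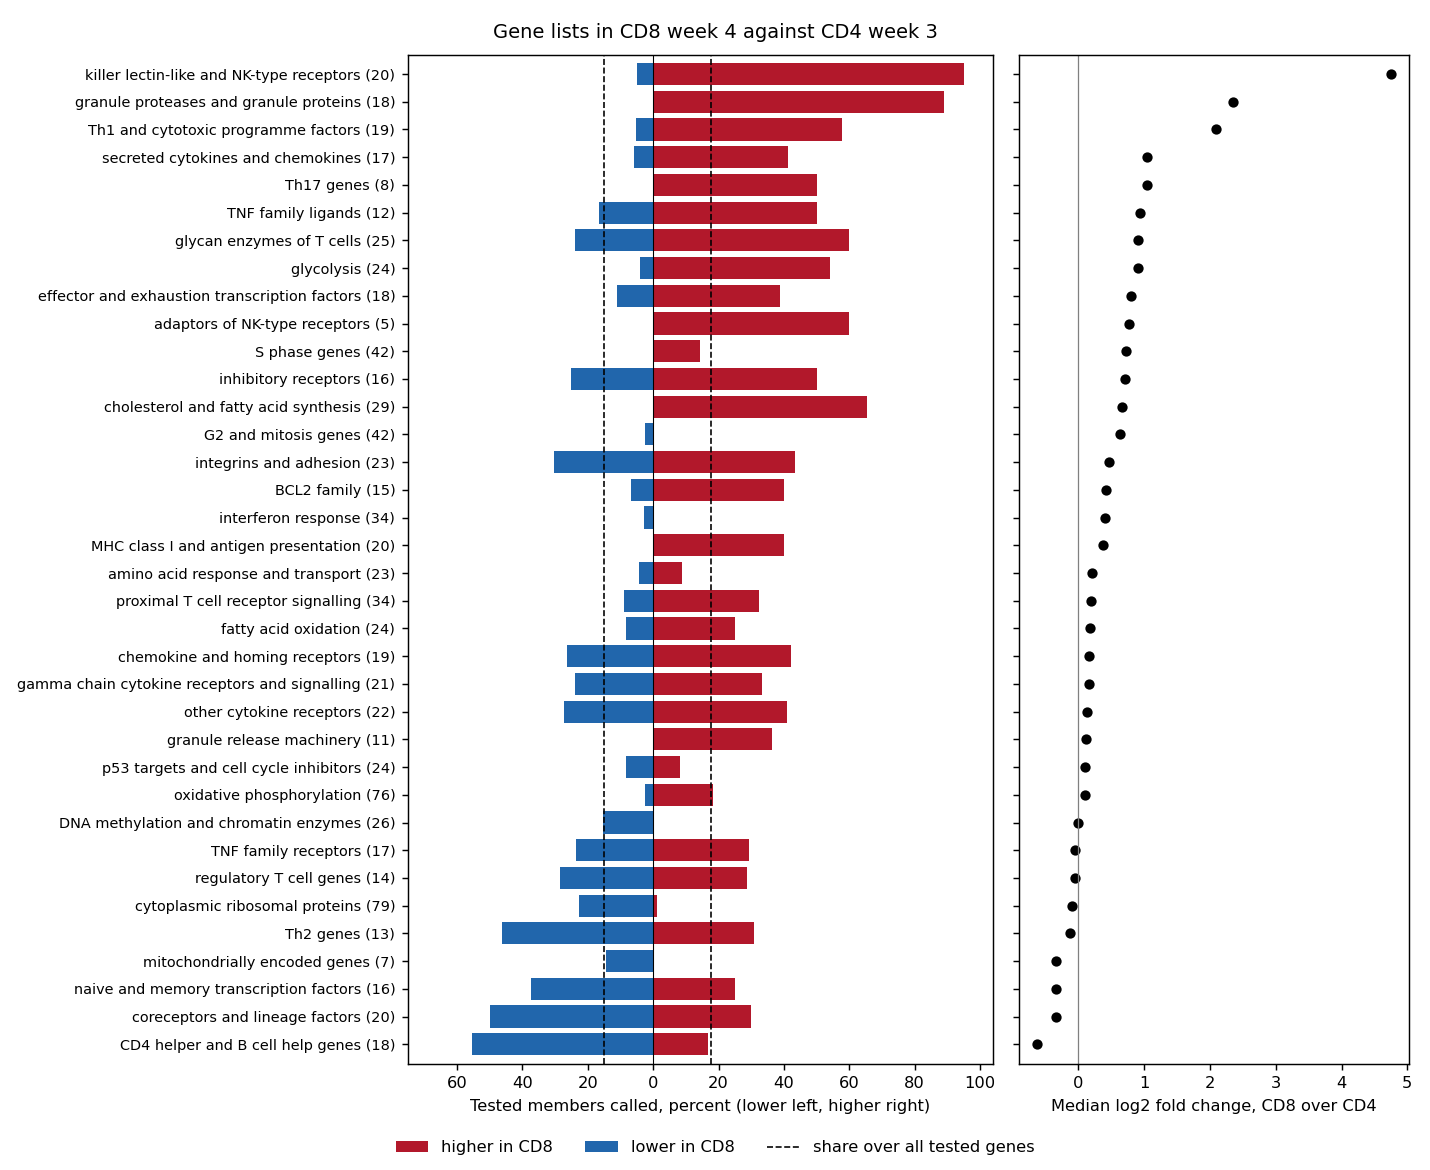
Share of tested members of each gene list called higher (red, to the right) or lower (blue, to the left) in CD8 week 4 than in CD4 week 3 libraries, in percent, with the number tested in parentheses and dashed lines at the shares over all tested genes (17.7% and 15.0%). The panel on the right gives the median log2 fold change, CD8 over CD4, which is 4.76 for the killer lectin-like and NK-type receptors and -0.63 for the CD4 helper genes.

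The coreceptors followed the labels. Cd8a, which encodes the CD8 alpha chain, had 742, 644, 1577, 1173 and 1177 CPM in CD8 libraries, against 17.5, 3.30, 1.03, 0.273 and 1.73 CPM in CD4 libraries. Every CD8 library lay far above the highest CD4 library, replicate 1 (log2 fold change 7.80 ± 0.86, adjusted p = 2.1e-06; the error of a fold change is its SE throughout). Cd8b1, the beta chain of the CD8 heterodimer, had 452, 373, 1149, 849 and 816 CPM in CD8 libraries, against 13.3, 6.11, 1.76, 1.37 and 4.14 CPM in CD4 libraries. The difference for Cd8b1 was 7.09 ± 0.56 (adjusted p = 3.0e-08) on the log2 scale. Cd4 had no count in any CD8 library, against 634, 519.9, 565, 522 and 879.6 CPM in the CD4 libraries, so that it was at least 23591-fold lower in CD8, taking 3 counts over the group as the floor. CD4 replicate 1 had the highest Cd8a and Cd8b1 values of the CD4 group.

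The transcription factors that separate the branches were not symmetric. Zbtb7b, the factor that keeps CD4 cells from taking the CD8 fate, had 43.9, 57.2, 4.81, 12.8 and 8.53 CPM in CD8 libraries, against 140.3, 149, 138, 131 and 157 CPM in CD4 libraries. The groups did not overlap, but CD8 replicates 1 and 2 held several times the level of the other CD8 libraries, and the log2 fold change of -2.49 ± 0.49 (adjusted p = 0.00069) became -4.03 (adjusted p = 3.9e-07) without them. Runx3, its counterpart in CD8 cells, did not pass the test: it had 215, 228, 160.5, 184 and 170.5 CPM in CD8 libraries, against 162, 185, 182, 156 and 204 CPM in CD4 libraries, overlapping groups with a log2 fold change of 0.11 ± 0.12 (adjusted p = 0.51). Its paralogs did pass. Runx2 was higher in CD8, with 84.5, 102, 72.0, 78.5 and 60.4 CPM in CD8 libraries, against 10.5, 2.59, 11.99, 10.3 and 3.13 CPM in CD4 libraries. Runx2 had a fitted log2 fold change of 3.37 ± 0.40 (adjusted p = 4.1e-06). Runx1 was lower, with 14.3, 17.6, 8.28, 17.1 and 11.6 CPM in CD8 libraries, against 92.8, 62.4, 79.0, 94.7 and 90.0 CPM in CD4 libraries. Runx1 differed by a log2 fold change of -2.60 ± 0.17 (adjusted p = 3.0e-09). Counts over whole genes do not separate the promoters from which Runx3 is read. Gata3, which promotes CD4 fate and Th2 function, was lower in CD8 at 56.1 ± 7.25 CPM in CD8 and 166 ± 31.9 CPM in CD4 libraries (SD, n = 5 each; log2 fold change -1.57 ± 0.23).

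Of 20 genes in the list of coreceptors and lineage factors, 6 were higher and 10 lower in CD8, and 4 did not pass, with a median log2 fold change of -0.33 against 0.005 over all genes. Lower members included factors of T cell identity. Ets1, a factor of naive lymphocytes, was lower by 1.00 on the log2 scale (546 ± 56.4 CPM in CD8 and 1089 ± 109 CPM in CD4 libraries). Lef1, a partner of Tcf7 in naive and memory cells, fell by 1.21, and Bcl11b, which fixes T cell commitment, fell by 0.65. Tcf7 itself, the TCF-1 gene, passed narrowly at -0.65 ± 0.23 (adjusted p = 0.037) with overlapping libraries, since CD4 replicate 2 had 304 CPM and the other CD4 libraries 707 to 982 CPM; without CD8 replicates 1 and 2 it was -0.52 (adjusted p = 0.21), and the call was lost in 7 of 10 fits with 1 library left out (adjusted p = 0.055 to 0.10). Tox, which takes part in CD4 lineage development in the thymus, was low in both groups and lower in CD8, at 0.678, 0.338, 0.517, 0.322 and 3.57 CPM in CD8 libraries, against 9.42, 5.27, 7.49, 14.3 and 6.04 CPM in CD4 libraries. For Tox the log2 fold change was -2.95 ± 0.53 (adjusted p = 0.00035). Myb, a factor of stem-like memory cells, was higher in CD8 at a log2 fold change of 2.55 ± 0.51, with CD8 replicate 5 at 39.0 CPM and the other CD8 libraries at 5.74 to 8.96 CPM.

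**Figure D2:**
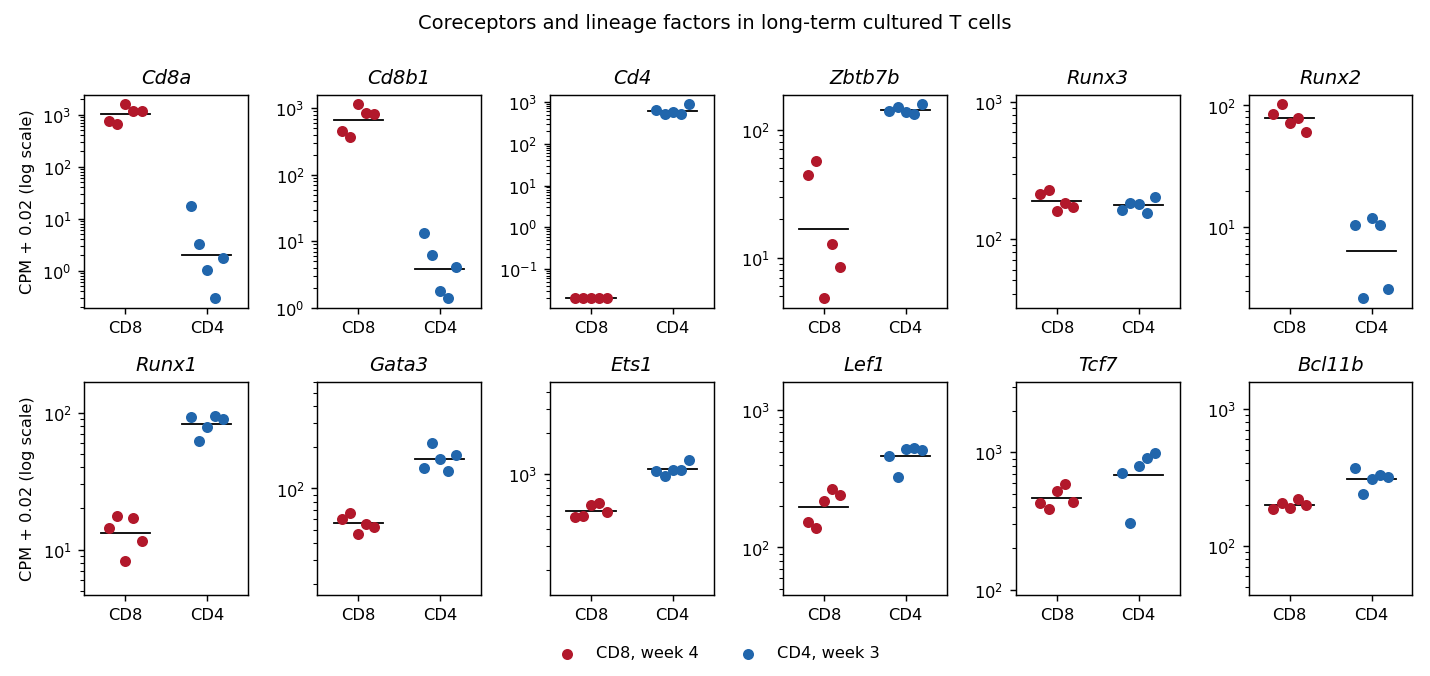
CPM of 12 lineage genes in the 5 CD8 week 4 (red, left) and 5 CD4 week 3 (blue, right) libraries, one point per library, on a log axis after adding 0.02 CPM, with the geometric mean as a line; each panel has its own axis range. Cd8a, Cd8b1 and Cd4 separate the groups completely, and Runx3 overlaps at 160.5 to 228 CPM in CD8 and 156 to 204 CPM in CD4 libraries.

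Genes of cytotoxic granules were higher in CD8 almost throughout: of 18 tested members, 16 were higher, none lower, and Srgn and Lamp1 did not pass. The list's median log2 fold change was 2.35. Gzmb, the granzyme that cuts caspases in target cells, had 1728, 1575, 1420.0, 1436 and 1928 CPM in CD8 libraries, against 183, 842, 149.9, 70.7 and 252 CPM in CD4 libraries. The difference for Gzmb was 2.43 ± 0.47 (adjusted p = 0.00064) on the log2 scale. All CD8 libraries lay above all CD4 libraries, among which replicate 2 was the highest. Prf1 (perforin, which forms the pore) had 126, 139, 64.3, 68.1 and 80.8 CPM in CD8 libraries, against 13.3, 5.49, 11.3, 10.2 and 10.3 CPM in CD4 libraries. Prf1 had a fitted log2 fold change of 3.24 ± 0.30 (adjusted p = 2.3e-07). Nkg7, a granule membrane protein of cytotoxic cells, had 758, 791, 735, 624 and 812 CPM in CD8 libraries, against 51.4, 113, 52.7, 27.9 and 20.4 CPM in CD4 libraries. Nkg7 differed by a log2 fold change of 3.81 ± 0.42 (adjusted p = 2.0e-06). Smaller differences were found for the granule cathepsin gene Ctsw (log2 fold change 2.12 ± 0.22), for Cst7, an inhibitor of granule cathepsins (1.37 ± 0.21), and for Serpinb9, the inhibitor that shields cytotoxic cells from their own granzyme B (1.12 ± 0.14). Without CD8 replicates 1 and 2, 13 of the 18 were higher and none lower, against 1383 higher and 1202 lower of 13643 genes tested in that fit.

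The mouse granzyme cluster on chromosome 14 beside Gzmb gave the highest fold changes of this list. Gzmg had 113, 48.5, 6.62, 14.03 and 7.31 CPM in CD8 libraries, against 0.0446, 0.0879, 0, 0 and 0.169 CPM in CD4 libraries, Gzmd had 139, 81.5, 7.14, 12.3 and 17.2 CPM in CD8 libraries, against 0.357, 0.571, 0.0428, 0 and 0.422 CPM in CD4 libraries, and Gzme had 49.7, 32.1, 3.16, 4.82 and 7.18 CPM in CD8 libraries, against 0.179, 0.176, 0.0428, 0.0455 and 0.253 CPM in CD4 libraries. In each of them CD8 replicates 1 and 2 lay above the other CD8 libraries, which in turn lay above every CD4 library. The log2 fold changes were 9.14 ± 1.00, 7.49 ± 0.93 and 7.06 ± 0.90 for Gzmg, Gzmd and Gzme, and without CD8 replicates 1 and 2 they were 7.13 (adjusted p = 1.2e-06), 5.42 (adjusted p = 3.5e-05) and 5.12 (adjusted p = 3.5e-05). Gzma, a tryptase encoded apart from this cluster on chromosome 13, had 79.96, 76.8, 1.03, 6.15 and 15.2 CPM in CD8 libraries, against 2.14, 2.72, 0.728, 0.728 and 0.422 CPM in CD4 libraries, and its call was lost without CD8 replicates 1 and 2 (2.48, adjusted p = 0.068), as was that of Gzmc (0.75, adjusted p = 0.19). The members of the cluster are close copies, and reads that map to several places were not counted, so that the split of counts among them is uncertain.

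The likeness of these copies is visible in their promoters. The windows from 250 bases before to 50 bases after the start of Gzmd, Gzme and Gzmg are shown from RefSeq (GRCm38.p6), 5′ to 3′ on the gene's strand, together with those of Cd8a, the coreceptor gene higher in CD8, and of Il7r, the receptor gene lower in CD8. Capitals mark matches to TGTGGT or its reverse complement ACCACA, the core of the RUNX motif; 16.76% of all 32851 promoter windows in the table hold at least 1.
Gzmd, chr14:56132544-56132843, minus strand: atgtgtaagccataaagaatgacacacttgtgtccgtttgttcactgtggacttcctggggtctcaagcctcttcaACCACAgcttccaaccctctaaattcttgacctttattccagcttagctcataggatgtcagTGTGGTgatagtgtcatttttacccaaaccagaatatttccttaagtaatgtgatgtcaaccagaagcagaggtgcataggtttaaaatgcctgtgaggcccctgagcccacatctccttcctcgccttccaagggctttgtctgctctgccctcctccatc
Gzme, chr14:56120576-56120875, minus strand: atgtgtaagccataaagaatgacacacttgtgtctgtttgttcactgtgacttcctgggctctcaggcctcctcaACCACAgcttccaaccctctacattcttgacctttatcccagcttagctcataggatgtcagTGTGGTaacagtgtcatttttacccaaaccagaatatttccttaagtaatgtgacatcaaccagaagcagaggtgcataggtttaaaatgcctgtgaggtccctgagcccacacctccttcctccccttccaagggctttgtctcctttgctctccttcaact
Gzmg, chr14:56159530-56159829, minus strand: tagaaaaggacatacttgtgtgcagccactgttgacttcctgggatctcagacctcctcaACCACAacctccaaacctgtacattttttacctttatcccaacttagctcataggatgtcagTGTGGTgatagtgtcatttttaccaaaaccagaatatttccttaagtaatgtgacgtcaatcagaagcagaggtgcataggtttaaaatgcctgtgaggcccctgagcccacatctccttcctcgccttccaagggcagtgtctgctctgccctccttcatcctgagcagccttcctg
Cd8a, chr6:71373177-71373476, plus strand: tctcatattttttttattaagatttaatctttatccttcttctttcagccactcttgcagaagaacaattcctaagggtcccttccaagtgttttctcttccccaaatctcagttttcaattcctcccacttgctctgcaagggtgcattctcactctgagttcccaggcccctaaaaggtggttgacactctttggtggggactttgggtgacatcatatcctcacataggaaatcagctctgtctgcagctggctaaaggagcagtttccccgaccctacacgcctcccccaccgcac
Il7r, chr15:9529827-9530126, minus strand: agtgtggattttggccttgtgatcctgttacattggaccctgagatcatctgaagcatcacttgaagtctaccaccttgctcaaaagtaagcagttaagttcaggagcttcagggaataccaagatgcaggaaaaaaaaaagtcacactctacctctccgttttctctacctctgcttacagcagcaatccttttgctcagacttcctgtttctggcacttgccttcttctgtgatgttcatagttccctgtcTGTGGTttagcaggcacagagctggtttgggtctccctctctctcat
The Gzmd and Gzme windows were identical at 93.4% of aligned positions, Gzmd and Gzmg at 81.0%, and Gzme and Gzmg at 79.4%. Each of the 3 granzyme windows held 2 matches, that of Il7r held 1 and that of Cd8a none. A match is a description of these letters only, and no binding was measured.

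Machinery for granule release changed less broadly. Of 11 tested members, 4 were higher in CD8 and none lower, with a median log2 fold change of 0.12. Without CD8 replicates 1 and 2, 4 were higher and 2 lower. Stx11, a syntaxin needed for granule fusion and mutated in a human immune disorder of cytotoxic cells, had 20.2, 21.7, 4.97, 7.15 and 9.14 CPM in CD8 libraries, against 0.804, 1.45, 0.856, 0.546 and 0.803 CPM in CD4 libraries. For Stx11 the log2 fold change was 3.82 ± 0.44 (adjusted p = 3.4e-06). Sytl3, a Rab27 effector, was higher by 3.46 ± 0.34 and Lyst, the lysosome trafficking gene, by 1.06 ± 0.28. Fasl, the ligand that kills through Fas instead of granules, had 155, 150.1, 115, 107 and 115 CPM in CD8 libraries, against 17.3, 31.0, 15.7, 11.3 and 18.2 CPM in CD4 libraries. The difference for Fasl was 2.78 ± 0.33 (adjusted p = 4.3e-06) on the log2 scale.

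The killer lectin-like and NK-type receptors had a median log2 fold change of 4.76, the largest of the 36 lists. Of 30 listed genes, 20 were tested, because 10 had too few counts. Of the 20, 19 were higher in CD8 and 1, Slamf6, was lower. Members near 0 in CD4 libraries entered the test through their counts in CD8 libraries, so the filter itself favoured members higher in CD8. Klrc1 and Klrd1 encode the chains of the inhibitory receptor NKG2A and CD94. Klrc1 had 91.3, 136, 50.4, 63.3 and 47.5 CPM in CD8 libraries, against 0.893, 0.747, 0.471, 0.774 and 0.549 CPM in CD4 libraries. Klrc1 had a fitted log2 fold change of 6.81 ± 0.33 (adjusted p = 6.8e-11). Klrd1 had 334, 317, 235, 235 and 211 CPM in CD8 libraries, against 10.4, 37.2, 15.8, 10.1 and 20.1 CPM in CD4 libraries. Klrd1 differed by a log2 fold change of 3.83 ± 0.35 (adjusted p = 2.5e-07). Klrk1 encodes NKG2D, an activating receptor for stress ligands, and had 125, 112, 92.6, 118 and 144 CPM in CD8 libraries, against 3.12, 3.34, 1.03, 1.09 and 1.52 CPM in CD4 libraries. For Klrk1 the log2 fold change was 5.87 ± 0.39 (adjusted p = 3.3e-09). In all 3 genes the lowest CD8 library lay above the highest CD4 library.

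Other receptors of this list followed. Cd160, a receptor for HVEM, had 133, 129.5, 56.3, 47.3 and 65.6 CPM in CD8 libraries, against 1.38, 2.59, 0.599, 0.911 and 0.296 CPM in CD4 libraries. The difference for Cd160 was 6.22 ± 0.46 (adjusted p = 1.3e-08) on the log2 scale. Slamf7 had 241, 299, 174, 95.7 and 74.0 CPM in CD8 libraries, against 2.68, 17.2, 0.856, 0.501 and 4.56 CPM in CD4 libraries. Slamf7 had a fitted log2 fold change of 5.09 ± 0.80 (adjusted p = 9.2e-05). Crtam, an adhesion receptor of activated cytotoxic cells, had 51.3, 57.0, 37.7, 40.9 and 51.9 CPM in CD8 libraries, against 3.12, 1.36, 1.24, 0.820 and 2.37 CPM in CD4 libraries. Crtam differed by a log2 fold change of 4.74 ± 0.31 (adjusted p = 3.0e-09). Cd226, the activating receptor DNAM-1, was present in both groups and higher in CD8, at 137 ± 12.7 CPM in CD8 and 47.4 ± 10.2 CPM in CD4 libraries (log2 fold change 1.53 ± 0.14). Klrb1c (NK1.1) had 42.7, 49.0, 6.21, 6.27 and 12.7 CPM in CD8 libraries, against 0.759, 0.352, 0.300, 0.637 and 0.253 CPM in CD4 libraries, with CD8 replicates 1 and 2 well above the rest. Slamf6, a self-ligand receptor that helper and memory-like cells share, ran the other way at 1.57, 1.97, 13.3, 17.3 and 7.48 CPM in CD8 libraries, against 105, 35.3, 78.9, 97.3 and 119 CPM in CD4 libraries. For Slamf6 the log2 fold change was -3.38 ± 0.57 (adjusted p = 0.00017). Without CD8 replicates 1 and 2, 18 receptors were higher and 1 lower, with a median of 3.99. The Klra and Klrc genes are families of close copies and their counts can be divided wrongly among members.

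Markers that define NK cells were at differing levels. Ncr1 (NKp46) had 3.64, 2.03, 0, 0.121 and 2.65 CPM in CD8 libraries, against 0.179, 0.0439, 0.128, 0.0455 and 0 CPM in CD4 libraries and was not tested, and Klrg1 was under 1.1 CPM in every library. Klre1, another receptor of NK cells, had 23.6, 26.9, 2.85, 4.34 and 5.22 CPM in CD8 libraries and at most 0.223 CPM in CD4 libraries, with CD8 replicates 1 and 2 highest, as for Klrb1c. Of the adaptors that carry the signals of these receptors, 3 of 5 tested were higher in CD8. Hcst, the DAP10 adaptor through which NKG2D signals, did not pass, with 106 ± 8.76 CPM in CD8 and 91.9 ± 10.8 CPM in CD4 libraries (log2 fold change 0.21 ± 0.13). Sh2d1a (SAP), the adaptor of SLAM receptors, was higher in CD8 at 42.8 ± 7.55 CPM in CD8 and 24.7 ± 5.77 CPM in CD4 libraries (log2 fold change 0.79 ± 0.19, adjusted p = 0.003), and Fcer1g had 5.82, 3.38, 0.362, 0.723 and 4.09 CPM in CD8 libraries, against 0.446, 0.176, 0.599, 0.410 and 0.296 CPM in CD4 libraries. The difference for Fcer1g was 2.89 ± 0.61 (adjusted p = 0.0014) on the log2 scale. Tyrobp, the DAP12 adaptor, had at most 1.32 CPM in CD8 and 0.179 CPM in CD4 libraries. The 9 NK cell markers summed to 197.5 to 334 CPM in CD8 and 1.33 to 9.80 CPM in CD4 libraries, Eomes taking the largest part; 5 of them had a mean under 1 CPM in CD8 and 8 in CD4 libraries, and the part of NK cells in these receptor values was not tested.

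**Figure D3:**
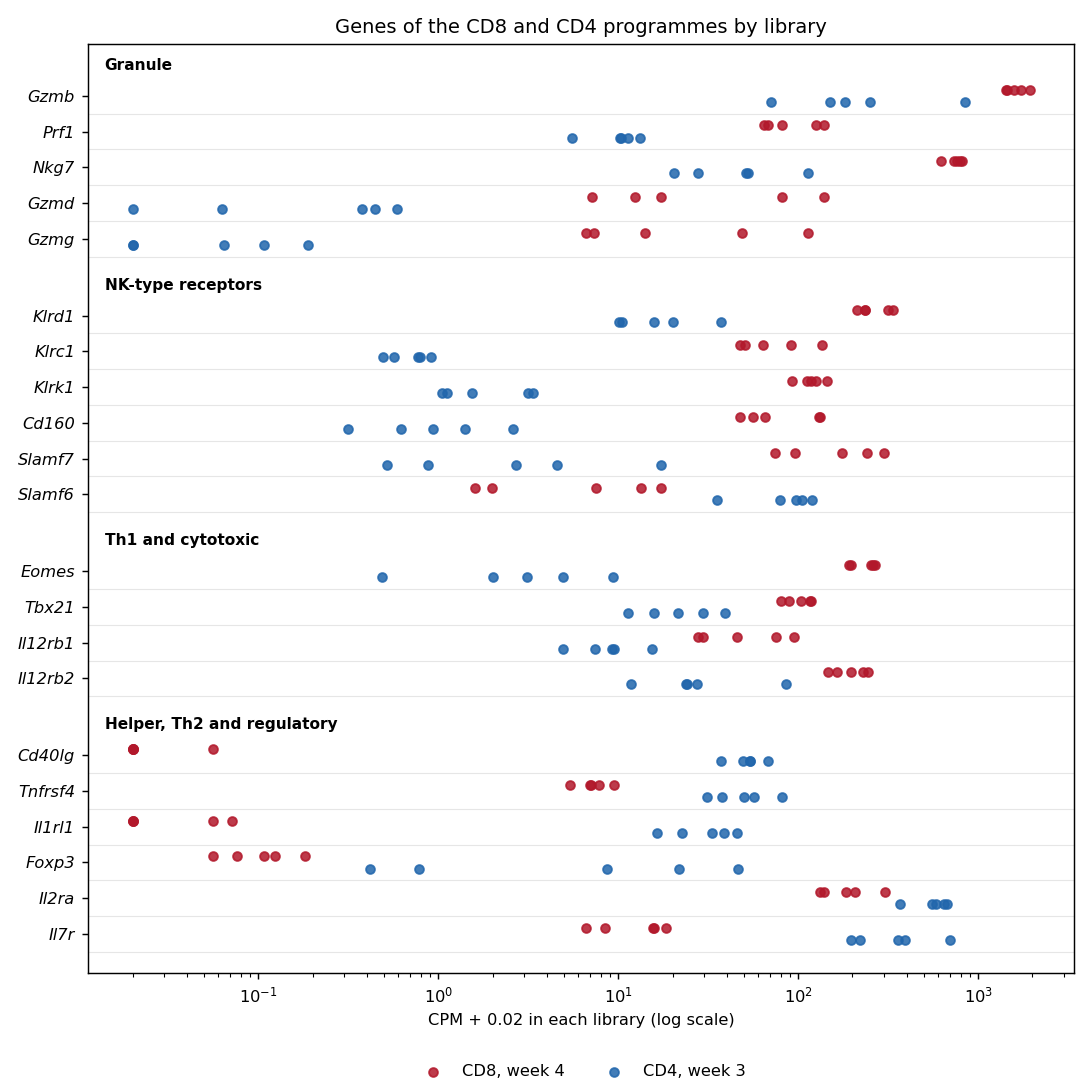
CPM plus 0.02 (log axis) of 21 genes in each CD8 week 4 library (red, upper row of each gene) and CD4 week 3 library (blue, lower row). Granule, NK-type receptor and Th1 genes lie to the right in CD8 apart from Slamf6, and the helper, Th2 and regulatory genes drawn, with Il7r, lie to the right in CD4, with Foxp3 spread from 0.395 to 46.4 CPM among the CD4 libraries.

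Factors and receptors of the Th1 and cytotoxic programme were higher in CD8 in 11 of 19 tested genes and lower in 1, with a median log2 fold change of 2.09. Eomes, the T-box factor of memory CD8 and NK cells, had 266, 261, 191, 195 and 253 CPM in CD8 libraries, against 4.91, 9.27, 3.08, 2.00 and 0.465 CPM in CD4 libraries. Eomes had a fitted log2 fold change of 5.88 ± 0.91 (adjusted p = 7.8e-05). Tbx21 (T-bet), its paralog and the master factor of Th1 cells, was present in both groups, with 117, 117, 88.5, 104 and 79.96 CPM in CD8 libraries, against 15.7, 39.2, 21.4, 11.2 and 29.7 CPM in CD4 libraries. Tbx21 differed by a log2 fold change of 2.11 ± 0.30 (adjusted p = 3.8e-05). Neither gene overlapped between the groups. The subunits of the IL-12 receptor were higher together, Il12rb1 by 2.55 ± 0.46 and Il12rb2 by 2.50 ± 0.41. The accessory chain of the IL-18 receptor, Il18rap, was higher by 2.06 ± 0.34, whereas its ligand-binding chain Il18r1 did not pass (-0.05 ± 0.38, adjusted p = 0.94). Id2, which opposes E proteins in effector cells, was higher by 2.34 ± 0.46, with CD8 replicates 1 and 2 at 756 and 874 CPM and the other CD8 libraries at 239 to 241 CPM.

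Other members of this list did not pass or ran the other way. Ifng, the main cytokine of this programme, was low in both groups, at 2.00, 2.87, 1.24, 0.643 and 1.52 CPM in CD8 libraries, against 1.07, 5.76, 0.300, 0.455 and 0.211 CPM in CD4 libraries (log2 fold change 0.08 ± 0.75, adjusted p = 0.95). With 1 library left out, its log2 fold change ran from -0.20 to 1.68. The value of 1.68 (adjusted p = 0.046) came without CD4 replicate 2, its highest CD4 library. That library was singled out by its values, so this p-value is not a separate test. Prdm1 (Blimp-1) had 13.03 ± 8.13 CPM in CD8 and 9.34 ± 1.89 CPM in CD4 libraries and did not pass (adjusted p = 0.35). Zfp683 (Hobit), a factor of tissue-resident cells, was the member lower in CD8, at 4.50, 4.00, 1.86, 0.884 and 1.09 CPM in CD8 libraries, against 4.60, 48.0, 4.75, 1.78 and 10.2 CPM in CD4 libraries (log2 fold change -2.49 ± 0.70, adjusted p = 0.011), with CD4 replicate 2 far above the rest; without that library it was -1.12 (adjusted p = 0.08). Among effector and exhaustion factors, Irf4, induced by receptor signals, was higher in CD8 by 2.47 ± 0.44 and Bhlhe40 by 2.09 ± 0.38. Bhlhe40 had 548, 638, 253, 191 and 192 CPM in CD8 libraries, against 68.4, 154, 55.3, 44.3 and 107 CPM in CD4 libraries. Without CD8 replicates 1 and 2 its log2 fold change was 1.31 (adjusted p = 0.010).

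Genes of T cell help were lower in CD8 in 10 of 18 tested genes and higher in 3, with a median log2 fold change of -0.63. Cd40lg, the ligand with which helper cells license B cells and dendritic cells, had 1 count in CD8 replicate 1 and none in the other CD8 libraries, against 53.7, 37.4, 49.2, 54.0 and 67.8 CPM in the CD4 libraries. The ratio, CD4 over CD8, was 5933 (95% counting interval 1065 to 234340.0). Tnfrsf4 (OX40) had 7.78, 9.46, 5.38, 7.03 and 6.96 CPM in CD8 libraries, against 49.9, 80.9, 37.6, 30.9 and 56.6 CPM in CD4 libraries. The difference for Tnfrsf4 was -2.81 ± 0.24 (adjusted p = 1.1e-07) on the log2 scale. Cd5, a brake on receptor signalling, had 71.9, 75.9, 55.1, 63.8 and 72.4 CPM in CD8 libraries, against 213, 213, 181, 170.0 and 248 CPM in CD4 libraries. Cd5 had a fitted log2 fold change of -1.60 ± 0.12 (adjusted p = 2.9e-08). Icos was lower by 1.04 and Cd28 by 0.71 on the log2 scale, with overlapping libraries. The call of Cd28 was lost without CD8 replicate 3, CD8 replicate 4 or CD4 replicate 5 (adjusted p = 0.067 to 0.097). The members that ran the other way were Tnfsf11 (RANKL, log2 fold change 3.21 ± 0.65), Cxcr5, the follicle-homing receptor, at no more than 0.522 CPM in any library, and Bcl6, the factor of follicular helper cells, at 7.001 ± 2.95 CPM in CD8 and 3.61 ± 1.80 CPM in CD4 libraries (0.96 ± 0.33, adjusted p = 0.034). The libraries of the groups overlapped for Bcl6, and its call was lost without CD8 replicates 1 and 2 (0.48, adjusted p = 0.38) and in 6 of 10 fits with 1 library left out (adjusted p = 0.062 to 0.12). The IL-6 receptor chain Il6ra had 4.75, 0.844, 92.6, 79.5 and 63.9 CPM in CD8 libraries, against 333, 137, 396, 452 and 277 CPM in CD4 libraries, and its call (adjusted p = 0.047) was lost without CD8 replicates 1 and 2, at -2.02 (adjusted p = 0.16).

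The Th2 list moved in both directions, with 4 of 13 tested genes higher and 6 lower in CD8. Without CD8 replicates 1 and 2 these numbers were 2 and 5. Il1rl1, the IL-33 receptor ST2, had 2 counts in all CD8 libraries, against 38.5, 22.7, 45.7, 32.9 and 16.3 CPM in the CD4 libraries, a ratio, CD4 over CD8, of 1759 (95% counting interval 487 to 14525). Il4 was at 0 in CD8 and at 0.714, 2.59, 1.11, 1.46 and 2.83 CPM in CD4 libraries, at least 66.0-fold lower in CD8. Ccr4, a chemokine receptor of Th2 and skin-homing cells, was lower at 2.86, 4.95, 1.91, 3.09 and 2.48 CPM in CD8 libraries, against 10.98, 23.8, 5.22, 6.19 and 8.24 CPM in CD4 libraries. Ccr4 differed by a log2 fold change of -1.83 ± 0.53 (adjusted p = 0.013). Il5, Il13 and Il10 were at most 0.0439 CPM in any library. Nfil3 and Gfi1 were the higher members with appreciable counts; Nfil3 had 162, 192, 58.8, 39.3 and 21.7 CPM in CD8 libraries, against 11.1, 47.6, 8.39, 7.79 and 16.1 CPM in CD4 libraries, and its call was lost without CD8 replicates 1 and 2 (1.13, adjusted p = 0.3).

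Regulatory T cell genes moved in both directions. Of 14 tested, 4 were higher and 4 lower in CD8 (28.6% each, against 17.7% and 15.0% over all tested genes). Their median log2 fold change was -0.06. Foxp3, the factor that defines regulatory cells, had 0.0357, 0.0563, 0.103, 0.161 and 0.0870 CPM in CD8 libraries, against 21.7, 0.395, 8.60, 46.4 and 0.760 CPM in CD4 libraries. For Foxp3 the log2 fold change was -7.37 ± 1.43 (adjusted p = 0.00067). The CD4 libraries differed among themselves more than 100-fold, replicates 1, 3 and 4 being high and replicates 2 and 5 low. Il2ra (CD25), which is also induced by activation, had 132, 139, 185, 206 and 305 CPM in CD8 libraries, against 583, 555, 649, 672 and 367 CPM in CD4 libraries (log2 fold change -1.55 ± 0.26, adjusted p = 0.00022). Lrrc32 (GARP), which displays latent TGF-beta on regulatory cells, was higher in CD8 at 166, 137, 382, 275 and 216 CPM in CD8 libraries, against 121, 99.9, 32.1, 52.1 and 6.59 CPM in CD4 libraries (log2 fold change 1.91 ± 0.56, adjusted p = 0.013), as was Tnfrsf9 (4-1BB) at 261, 306, 68.5, 48.8 and 45.7 CPM in CD8 libraries, against 3.08, 29.8, 2.70, 1.14 and 0.338 CPM in CD4 libraries. The difference for Tnfrsf9 was 4.30 ± 0.96 (adjusted p = 0.0021) on the log2 scale. Ikzf2 (Helios) was low in both groups, at 4.76 ± 1.07 CPM in CD8 and 2.65 ± 0.870 CPM in CD4 libraries.

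The receptors for the culture cytokines differed most in the alpha chain for IL-7. Il7r, the IL-7 receptor alpha chain, had 15.6, 18.3, 8.43, 15.7 and 6.61 CPM in CD8 libraries, against 221, 196, 359.9, 393 and 697 CPM in CD4 libraries (log2 fold change -4.85 ± 0.50, adjusted p = 8.1e-07), and the libraries of the groups did not overlap. Il2rb, the beta chain shared by the IL-2 and IL-15 receptors, was modestly higher in CD8 with overlapping libraries, at 1245, 1257, 1759, 1537 and 1284 CPM in CD8 libraries, against 994, 1469.7, 886, 654 and 730.2 CPM in CD4 libraries. Il2rb had a fitted log2 fold change of 0.58 ± 0.19 (adjusted p = 0.025), a call lost without CD8 replicate 3 or CD4 replicate 3, 4 or 5 (adjusted p = 0.056 to 0.074). Il15ra was higher by 0.94 ± 0.14 on the log2 scale, at 24.0 ± 2.76 CPM in CD8 and 12.5 ± 0.924 CPM in CD4 libraries. The common gamma chain gene Il2rg did not pass, with 0.16 on the log2 scale (adjusted p = 0.22). Of 21 tested genes of gamma chain receptors and their signalling, 7 were higher (33.3%) and 5 lower (23.8%), against 17.7% and 15.0% over all tested genes. The STAT5 targets split: Cish, a feedback inhibitor, was higher by 0.93 ± 0.30 and Socs2, another, was lower by 1.17 on the log2 scale, both with overlapping libraries and both losing their call without CD8 replicates 1 and 2 (0.61, adjusted p = 0.23 for Cish and -0.92, adjusted p = 0.21 for Socs2). Without CD8 replicates 1 and 2, 4 genes of this list were higher and 4 lower. Pim1, a survival kinase, was lower at 255, 223, 451, 498 and 454 CPM in CD8 libraries, against 899.8, 645, 786, 782 and 538 CPM in CD4 libraries. Pim1 differed by a log2 fold change of -0.96 ± 0.21 (adjusted p = 0.0019).

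Receptors that guide traffic between blood, lymph node and tissue moved in both directions. Of 19 tested, 8 were higher (42.1%) and 5 lower (26.3%) in CD8, against 17.7% and 15.0% over all tested genes. Cxcr3, a Th1-type receptor, had 210.2, 226, 97.3, 142 and 176 CPM in CD8 libraries, against 20.9, 48.7, 35.2, 15.3 and 34.3 CPM in CD4 libraries. For Cxcr3 the log2 fold change was 2.46 ± 0.32 (adjusted p = 1.2e-05). Cxcr6, a receptor of liver-homing and tissue cells, was higher by 2.53 ± 0.40. Ccr7, the receptor for entry into lymph nodes, did not pass: it had 243, 219, 443, 349 and 258 CPM in CD8 libraries, against 457, 186, 420.2, 451 and 352 CPM in CD4 libraries. The difference for Ccr7 was -0.30 ± 0.27 (adjusted p = 0.41) on the log2 scale. S1pr1, the receptor for exit from lymph nodes, was lower in CD8, at 134, 106, 464.8, 442 and 302 CPM in CD8 libraries, against 684, 593, 730.1, 737 and 784 CPM in CD4 libraries (log2 fold change -1.29 ± 0.40, adjusted p = 0.018), a call lost without CD8 replicates 1 and 2 (-0.81, adjusted p = 0.13). Klf2, the factor that drives S1pr1, did not pass, with 36.4, 14.9, 224, 272 and 146 CPM in CD8 libraries, against 302, 234, 424, 392 and 348 CPM in CD4 libraries (adjusted p = 0.14). Gpr183, an oxysterol receptor that positions helper cells in lymphoid tissue, was lower at 10.6, 18.0, 6.78, 5.75 and 6.31 CPM in CD8 libraries, against 32.3, 42.2, 47.4, 34.1 and 64.2 CPM in CD4 libraries. Gpr183 had a fitted log2 fold change of -2.22 ± 0.33 (adjusted p = 5.4e-05).

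Integrins changed by chain. Of 23 tested adhesion genes, 10 were higher (43.5%) and 7 lower (30.4%) in CD8, against 17.7% and 15.0% over all tested genes. Without CD8 replicates 1 and 2 these numbers were 6 and 6. Itgal, the alpha chain of LFA-1, had 1629, 1791, 1021, 1036 and 1248 CPM in CD8 libraries, against 463, 583, 407, 355 and 489 CPM in CD4 libraries (log2 fold change 1.55 ± 0.17, adjusted p = 2.1e-06), and its ligand gene Icam1 was higher at 85.2 ± 7.26 CPM in CD8 and 25.1 ± 2.28 CPM in CD4 libraries (log2 fold change 1.76 ± 0.21). Itga1 and Itgax were high in CD8 replicates 1 and 2 and low elsewhere: Itgax had 36.6, 37.5, 2.28, 2.85 and 7.005 CPM in CD8 libraries, against 0.268, 0.395, 0.214, 0 and 0.0422 CPM in CD4 libraries. Itga4, the alpha chain of VLA-4, was lower at 91.9, 66.0, 109, 125 and 96.5 CPM in CD8 libraries, against 312, 173, 319, 322 and 412 CPM in CD4 libraries (log2 fold change -1.66 ± 0.21, adjusted p = 7.8e-06), as were Itga6 by 1.57 and Itgb3 by 1.35 on the log2 scale. Cd44, part of the sort, did not pass (log2 fold change 0.66 ± 0.29, adjusted p = 0.09). Without CD4 replicate 2, its highest CD4 library, it was 1.16 (adjusted p = 7.8e-05). That library was singled out by its values, so this p-value is not a separate test.

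Secreted factors were higher in CD8 in 7 of 17 tested genes and lower in 1, Il4. Ccl5 (RANTES), which memory CD8 cells store as RNA and protein, had 175, 186, 419, 429 and 267 CPM in CD8 libraries, against 4.11, 8.44, 3.51, 5.10 and 4.44 CPM in CD4 libraries. Ccl5 differed by a log2 fold change of 5.85 ± 0.84 (adjusted p = 3.5e-05). Xcl1, the chemokine that draws cross-presenting dendritic cells, had 38.4, 39.2, 9.37, 17.6 and 28.3 CPM in CD8 libraries, against 0.357, 0.659, 0.342, 0.501 and 0.253 CPM in CD4 libraries. For Xcl1 the log2 fold change was 5.96 ± 0.61 (adjusted p = 8.2e-07). Spp1 (osteopontin) had 250.2, 227, 10.1, 22.3 and 33.7 CPM in CD8 libraries, against 0.759, 1.85, 0.214, 0.228 and 0.591 CPM in CD4 libraries, with CD8 replicates 1 and 2 highest (log2 fold change 7.21 ± 0.97, adjusted p = 1.8e-05).

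Inhibitory receptors were higher in CD8 in 8 of 16 tested genes and lower in 4; without CD8 replicates 1 and 2 these numbers were 5 and 3, and the median log2 fold change was 0.17 against 0.71 with them. Cd72, a C-type lectin best known from B cells, had 94.2, 101, 73.9, 76.3 and 76.6 CPM in CD8 libraries, against 2.81, 3.65, 1.84, 1.96 and 5.83 CPM in CD4 libraries. The difference for Cd72 was 4.71 ± 0.28 (adjusted p = 8.8e-10) on the log2 scale. Lag3 had 27.5 and 40.02 CPM in CD8 replicates 1 and 2, 0.621 to 2.57 CPM in the other CD8 libraries and 0.0845 to 0.703 CPM in CD4 libraries. Pdcd1 (PD-1) was under 3.5 CPM in every library. Cd200r1 was lower, at 6.39, 6.25, 3.10, 4.42 and 2.65 CPM in CD8 libraries, against 19.0, 29.1, 17.9, 19.7 and 21.6 CPM in CD4 libraries. Cd200r1 had a fitted log2 fold change of -2.23 ± 0.33 (adjusted p = 5.7e-05). Of 12 tested TNF family ligands, 6 were higher (50%) and 2 lower (16.7%), Cd40lg among the lower. Of 17 TNF family receptors, 5 were higher (29.4%) and 4 lower (23.5%). Over all tested genes the shares were 17.7% and 15.0%. Tnfsf10 (TRAIL), a death ligand, was higher by 1.32 ± 0.20. Tnfrsf25 (DR3, the receptor of TL1A) had 1.04, 0.619, 2.54, 3.54 and 2.09 CPM in CD8 libraries, against 60.8, 31.6, 59.2, 66.6 and 54.2 CPM in CD4 libraries. Tnfrsf25 differed by a log2 fold change of -4.78 ± 0.61 (adjusted p = 1.0e-05).

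Of 34 tested genes of the T cell receptor machinery, 11 were higher (32.35%) and 3 lower (8.82%) in CD8, against 17.7% and 15.0% over all tested genes. Their median log2 fold change was 0.19. Cd3e was higher by 0.55 ± 0.10 (519 ± 85.7 CPM in CD8 and 354 ± 16.8 CPM in CD4 libraries) and Lck, the kinase bound to the coreceptors, by 0.56 ± 0.06 (833 ± 38.1 CPM in CD8 and 566 ± 38.6 CPM in CD4 libraries). Themis, a signalling protein of thymic selection, was higher at 594.9, 626, 561, 498 and 417 CPM in CD8 libraries, against 208, 294, 207, 207 and 345 CPM in CD4 libraries. For Themis the log2 fold change was 1.10 ± 0.16 (adjusted p = 3.5e-05). The phosphatase gene Ptpn22 was higher by 0.96 ± 0.09. Of MHC class I and presentation genes, 8 of 20 were higher and none lower, H2-Q6, a nonclassical class I gene with close copies, by 1.04 ± 0.22. Without CD8 replicates 1 and 2, 5 were higher. Of 34 interferon response genes, none was higher and 1, Slfn2, was lower; in a fit of the 10 long-term libraries alone 7 were higher and 2 lower.

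Enzymes that build surface glycans had 15 of 25 tested members higher and 6 lower in CD8, with a median of 0.91. St8sia6, which adds alpha-2,8-linked sialic acid, had no count in any CD8 library, against 30.1, 4.97, 25.5, 58.5 and 47.5 CPM in CD4 libraries, at least 1251-fold lower in CD8. St6gal1, which makes the alpha-2,6-linked sialic acid seen by CD22, had 10.9, 17.7, 24.5, 18.9 and 6.48 CPM in CD8 libraries, against 163, 97.0, 177, 193 and 178 CPM in CD4 libraries. The difference for St6gal1 was -3.37 ± 0.37 (adjusted p = 2.1e-06) on the log2 scale. Gcnt1, an enzyme that makes core 2 O-glycans, had 18.4, 15.4, 4.71, 6.07 and 5.96 CPM in CD8 libraries, against 0.670, 0.527, 0.257, 0.182 and 0.253 CPM in CD4 libraries. Gcnt1 had a fitted log2 fold change of 4.72 ± 0.46 (adjusted p = 3.9e-07).

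The counts of cell cycle genes depended on 1 library. Of 42 tested G2 and mitosis genes, none was higher and 1, Cdc25b, was lower in CD8, and of 42 S phase genes 6 were higher (14.3%, against 17.7% over all tested genes). Mki67, the proliferation marker Ki-67, had 277, 320.4, 206, 228 and 215 CPM in CD8 libraries, against 158, 630.3, 42.3, 21.7 and 44.8 CPM in CD4 libraries. Mki67 differed by a log2 fold change of 0.47 ± 0.61 (adjusted p = 0.57). CD4 replicate 2 lay above all CD8 libraries, while CD4 replicates 3, 4 and 5 lay far below them, and without CD4 replicate 2 the log2 fold change of Mki67 was 1.89 (adjusted p = 0.0015). That library was singled out by its values, so this p-value is not a separate test. Without CD4 replicate 2, 39 G2 and mitosis genes were higher and 1 lower, with a median log2 fold change of 1.98 against 0.63 with it, and 36 S phase genes were higher, with medians of 1.23 and 0.72. Over all genes tested in that fit, 3018 of 13448 were higher and 2417 lower. The mean log2(CPM + 0.5) of the 42 G2 and mitosis genes was 5.39, 5.45, 5.21, 5.24 and 5.16 in CD8 libraries, against 4.56, 6.36, 3.26, 2.67 and 3.10 in CD4 libraries. Cdc25b, a phosphatase that starts mitosis, was lower against this pattern, at 74.8, 82.7, 79.99, 101 and 70.3 CPM in CD8 libraries, against 188, 345, 246, 201 and 343 CPM in CD4 libraries. For Cdc25b the log2 fold change was -1.69 ± 0.24 (adjusted p = 3.1e-05).

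**Figure D4:**
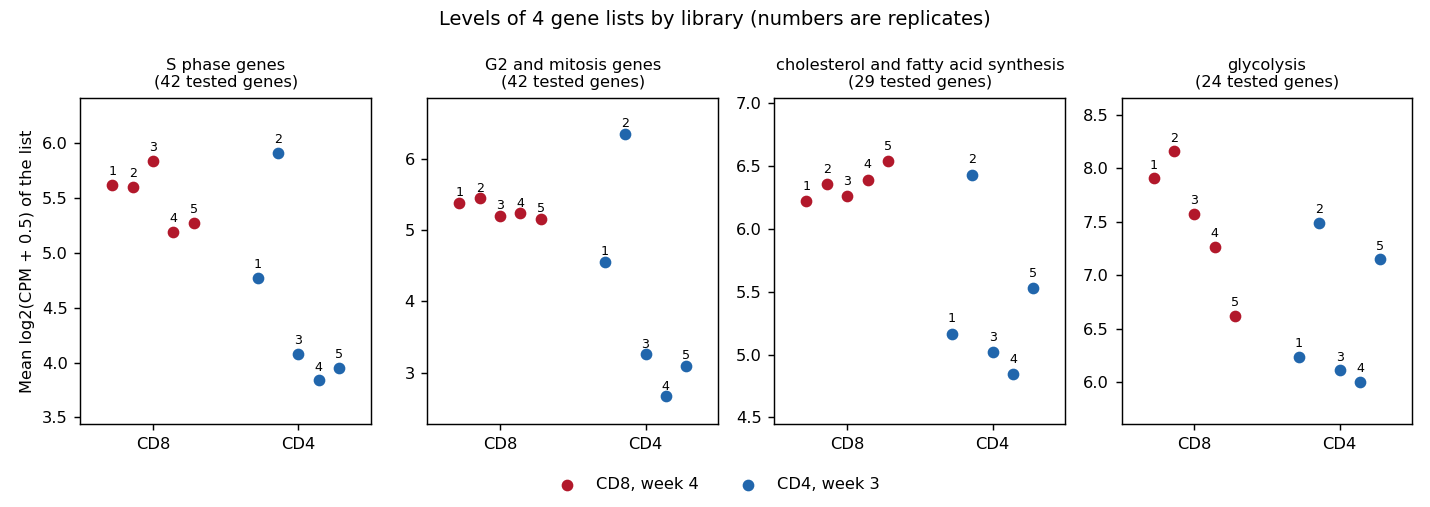
Mean log2(CPM + 0.5) over the tested genes of 4 lists in each CD8 week 4 (red, left) and CD4 week 3 (blue, right) library, with replicate numbers beside the points and a separate axis range in each panel. CD4 replicate 2 reaches 6.36 for G2 and mitosis genes, above every CD8 library (5.16 to 5.45), while the other CD4 libraries lie between 2.67 and 4.56.

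Genes of lipid synthesis and glycolysis were higher in CD8, and the number called depended on the libraries in the fit. Of 29 tested genes of cholesterol and fatty acid synthesis, 19 were higher and none lower. The number higher was 25 without CD4 replicate 2 and 10 without CD8 replicates 1 and 2. Over all genes tested in these fits, 3018 of 13448 and 1383 of 13643 were higher. The median log2 fold change of this list was 0.66 with all libraries. It was 0.98 without CD4 replicate 2 and 0.79 without CD8 replicates 1 and 2, a fit with 3 CD8 libraries. The mean log2(CPM + 0.5) of the list was 6.22 and 6.35 in CD8 replicates 1 and 2, and 6.26 to 6.54 in the other CD8 libraries. Scd2, a fatty acid desaturase, had 1112, 1252, 957, 1142 and 1097 CPM in CD8 libraries, against 71.9, 936, 99.6, 41.2 and 444 CPM in CD4 libraries (log2 fold change 1.80 ± 0.62, adjusted p = 0.031). The call of Scd2 was lost in 5 of 10 fits with 1 library left out (adjusted p = 0.051 to 0.075, the highest without CD4 replicate 3) and without CD8 replicates 1 and 2 (1.74, adjusted p = 0.10). Its paralog Scd1 had 41.1, 52.5, 30.3, 39.9 and 40.3 CPM in CD8 libraries, against 0.0446, 8.70, 0, 0 and 5.87 CPM in CD4 libraries. The difference for Scd1 was 3.80 ± 0.99 (adjusted p = 0.0065) on the log2 scale. CD4 replicate 2, and for Scd1 also CD4 replicate 5, stood nearer to the CD8 libraries than the other CD4 libraries did. Of 24 glycolysis genes, 13 were higher and 1, Ldhb, was lower; 4 were higher without CD8 replicates 1 and 2, and none in a fit with CD8 replicates 4 and 5 alone. The median log2 fold change of the glycolysis genes was 0.90 with all libraries and 0.55 without CD8 replicates 1 and 2. Aldoa, the glycolytic aldolase, had 2774, 3644, 1920.5, 1617 and 858 CPM in CD8 libraries, against 439.7, 1314, 433, 406 and 898 CPM in CD4 libraries (log2 fold change 1.63 ± 0.40, adjusted p = 0.0039), and its call was lost without CD8 replicates 1 and 2 (1.07, adjusted p = 0.074). Gapdh behaved alike, at 1061, 1331, 876, 732 and 516 CPM in CD8 libraries, against 309, 759, 264, 243 and 446 CPM in CD4 libraries. Oxidative phosphorylation genes were called higher in 14 (18.4%) and lower in 2 of 76 (2.63%), against 17.7% and 15.0% over all tested genes. Fatty acid oxidation genes were called higher in 6 (25%) and lower in 2 of 24 (8.33%), and the mitochondrially encoded genes higher in none and lower in 1 of 7 (14.3%). Of 79 cytoplasmic ribosomal protein genes, 18 were lower (22.8%) and 1 higher (1.27%), with a median of -0.10. Ribosomal protein genes took 8.37 ± 0.410% of counts in CD8 and 9.18 ± 0.735% in CD4 libraries.

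Genes of survival and of cytokine response outside the common gamma chain were also compared. Of 15 tested BCL2 family genes, 6 were higher in CD8 (40%) and 1, Mcl1, was lower (6.67%), against 17.7% and 15.0% over all tested genes. Bcl2l1 (BCL-XL, which blocks cell death) had 63.6, 72.1, 84.0, 76.7 and 81.3 CPM in CD8 libraries, against 31.2, 53.9, 25.2, 22.7 and 23.4 CPM in CD4 libraries. Bcl2l1 had a fitted log2 fold change of 1.27 ± 0.29 (adjusted p = 0.0023). Bcl2l11 (BIM, which promotes it) was higher by 0.86 ± 0.19. Bcl2a1b was higher by 3.50 ± 0.59, and by 2.34 without CD8 replicates 1 and 2, with close copies among which its reads may be divided. Among 24 genes that p53 induces or that hold back the cell cycle, 2 were higher and 2 lower (8.33% each), fewer than over all tested genes. Gadd45a, a growth arrest gene, was lower by 2.35 on the log2 scale, at 2.13 ± 1.13 CPM in CD8 and 10.9 ± 4.67 CPM in CD4 libraries.

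Of 22 other cytokine receptor genes, 9 were higher (40.9%) and 6 lower (27.3%), against 17.7% and 15.0% over all tested genes. Il10rb, the chain shared by the IL-10 and IL-22 receptors, was higher at 121 ± 9.44 CPM in CD8 and 46.0 ± 7.21 CPM in CD4 libraries (log2 fold change 1.39 ± 0.12, adjusted p = 7.3e-08), and Ifnar2, a chain of the type I interferon receptor, was higher by 1.07 ± 0.12. Il6st (gp130), the signalling chain of the IL-6 family, was lower at 31.6, 26.3, 45.8, 63.7 and 47.2 CPM in CD8 libraries, against 105, 60.3, 105, 115 and 102 CPM in CD4 libraries. Il6st differed by a log2 fold change of -1.18 ± 0.21 (adjusted p = 0.00033). Of 8 Th17 genes, 4 were higher and none lower, among them Rora by 1.84 ± 0.32. Of 16 naive and memory transcription factors, 4 were higher (25%) and 6 lower (37.5%), and of 18 effector and exhaustion factors 7 were higher (38.9%) and 2 lower (11.1%). Of 26 genes of DNA methylation and chromatin, none was higher and 4 were lower (15.4%, against 15.0% over all tested genes), among them the Polycomb gene Cbx7 at 145 ± 15.7 CPM in CD8 and 274 ± 57.1 CPM in CD4 libraries (log2 fold change -0.92 ± 0.14, adjusted p = 7.3e-05). Of 23 genes of amino acid response and transport, 2 were higher (8.70%) and 1 was lower (4.35%), fewer than over all tested genes.

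Among protein-coding genes with at least 10 CPM in the higher group and no overlap, the largest differences on the CD8 side beyond those above were of varied kinds. Megf11, a cell surface protein with EGF-like repeats, had 7.71, 7.66, 32.4, 32.5 and 20.4 CPM in CD8 libraries, against 0.0893, 0.132, 0, 0 and 0 CPM in CD4 libraries. For Megf11 the log2 fold change was 8.67 ± 0.73 (adjusted p = 5.5e-07). Zbtb32 (PLZP), a repressor induced in activated lymphocytes, had 92.9, 111, 17.4, 19.4 and 12.4 CPM in CD8 libraries, against 0.134, 0.527, 0.0856, 0 and 0.0845 CPM in CD4 libraries. The difference for Zbtb32 was 8.20 ± 0.86 (adjusted p = 1.0e-06) on the log2 scale. Cd300lf, a lipid-binding inhibitory receptor known from myeloid cells, had 44.1, 45.3, 7.66, 12.1 and 6.96 CPM in CD8 libraries, against 0.0446, 0.308, 0.0428, 0.0455 and 0.0422 CPM in CD4 libraries. Cd300lf had a fitted log2 fold change of 7.83 ± 0.75 (adjusted p = 3.6e-07). Dixdc1 had 137, 161, 2.59, 5.99 and 4.05 CPM in CD8 libraries and at most 0.264 CPM in CD4 libraries, and Ppp2r2c, Tjp1 and Fndc4 were the other members of the 10 with the highest fold changes, at log2 fold changes of 7.61, 7.87 and 7.48. For Dixdc1, Ppp2r2c, Tjp1, Zbtb32 and Cd300lf CD8 replicates 1 and 2 held the highest values, and the log2 fold changes without them were 4.54 (adjusted p = 0.00014), 4.28 (adjusted p = 0.00037), 6.09 (adjusted p = 1.9e-06), 6.58 (adjusted p = 8.0e-07) and 6.45 (adjusted p = 3.0e-07).

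On the CD4 side the largest differences beyond Cd4, Cd40lg, Il1rl1, St8sia6 and Foxp3 were in signalling genes. Ptgir, the prostacyclin receptor, had 0, 0.169, 0.0517, 0.161 and 0.0435 CPM in CD8 libraries, against 27.6, 44.0, 32.6, 28.7 and 45.3 CPM in CD4 libraries. Ptgir differed by a log2 fold change of -8.70 ± 0.39 (adjusted p = 2.3e-11). Stc1, a secreted glycoprotein hormone, had 3 counts in all CD8 libraries, against 27.8, 28.4, 27.2, 28.7 and 44.4 CPM in CD4 libraries, a ratio, CD4 over CD8, of 1183 (95% counting interval 405 to 5738). Mctp1, a calcium-binding membrane protein, had 0.0357, 0.113, 0, 0.0402 and 0.0435 CPM in CD8 libraries, against 15.3, 43.2, 13.9, 14.02 and 41.1 CPM in CD4 libraries. For Mctp1 the log2 fold change was -8.99 ± 0.60 (adjusted p = 3.4e-09). Trat1 (TRIM), an adaptor that binds the T cell receptor complex, had 0.0357, 0.0563, 0.207, 0.161 and 0.218 CPM in CD8 libraries, against 9.51, 64.0, 22.9, 25.8 and 46.8 CPM in CD4 libraries. The difference for Trat1 was -7.92 ± 0.67 (adjusted p = 8.2e-08) on the log2 scale. Ly6c1 had 0.393, 0.450, 0.362, 0.442 and 0.522 CPM in CD8 libraries, against 43.8, 49.1, 59.2, 40.3 and 152 CPM in CD4 libraries (log2 fold change -7.29 ± 0.70, adjusted p = 3.7e-07), while its near-identical neighbour Ly6c2 ran the other way at 1061, 1029, 1140.0, 879.8 and 1213 CPM in CD8 libraries, against 58.2, 351, 71.3, 17.8 and 145 CPM in CD4 libraries. Ly6c2 had a fitted log2 fold change of 3.05 ± 0.67 (adjusted p = 0.0018). Reads shared by Ly6c1 and Ly6c2 cannot be assigned with certainty.

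Of the genes with a difference of at least 2-fold, those that took most reads were, on the CD8 side, Ahnak, Aldoa, Gzmb, Itgal, Scd2 and Ly6c2, and on the CD4 side Igfbp4, Atp1b3, S1pr1, Itgb3, Mdn1 and Cd4. Ahnak, a giant scaffold protein of the membrane, had 2907, 3431, 1895, 2190.4 and 1814 CPM in CD8 libraries, against 575, 1169, 635, 593 and 818 CPM in CD4 libraries. Ahnak differed by a log2 fold change of 1.69 ± 0.26 (adjusted p = 8.0e-05). Igfbp4, a binding protein of insulin-like growth factors, had 183, 151, 492, 493 and 279.8 CPM in CD8 libraries, against 2168, 1142, 1433, 1516 and 921 CPM in CD4 libraries. For Igfbp4 the log2 fold change was -2.17 ± 0.32 (adjusted p = 5.4e-05). Atp1b3, a sodium pump subunit, had 239, 215, 481, 428 and 402 CPM in CD8 libraries, against 679.5, 693, 783, 779.8 and 817 CPM in CD4 libraries. The difference for Atp1b3 was -1.09 ± 0.19 (adjusted p = 0.0003) on the log2 scale. Mdn1, a giant ATPase of ribosome assembly, was lower by 1.11 on the log2 scale.

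Most of the genes called in long-term culture were also called in the week 1 libraries, which are separate samples but shared the filter, the scaling and the estimate of spread with the long-term libraries. Title numbers of CD8 and CD4 libraries lay in separate ranges at week 1 as well. At either stage, lineage cannot be told apart from what these numbers mark. Whether week 1 and long-term libraries of neighbouring title numbers share a source is not stated in the labels. At week 1, 5064 of the 13290 genes (38.1%) differed between CD8 and CD4, 2538 higher and 2526 lower. Of the 4342 genes called in long-term culture, 69.6% were called in the same direction at week 1, as were 59.7% of the week 1 calls in long-term culture; 3031 genes were called at both stages, 3021 in the same direction and 10 in opposite directions. With the 10 libraries of each stage fitted apart, 61.25% of 3961 long-term calls had the same direction at week 1. Among the genes with a long-term difference of at least 2-fold, 1433 of 1836 (78.05%) were also called in the same direction at week 1. Nkg7, for instance, had a log2 fold change of 3.81 ± 0.42 in long-term culture and of 3.31 ± 0.41 (adjusted p = 8.2e-06) at week 1. For Zbtb7b the values were -2.49 ± 0.49 and -2.13 ± 0.48 (adjusted p = 0.0019).

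The test of the change of the difference between the stages called 87 genes (0.655%), of which 38 were called at both stages, 25 in long-term culture only and 24 at week 1 only. At week 1 Il1rl1 was low in both groups, at 0.726, 0.834, 0.117, 0.636 and 0.150 CPM in CD8 libraries, against 0.207, 0.376, 0.799, 1.09 and 0 CPM in CD4 libraries. Its log2 fold change was -10.38 ± 0.84 in long-term culture, a value that depends on the prior count since CD8 libraries held 2 counts, and 0.05 ± 0.62 (adjusted p = 0.95) at week 1, a change of -10.44 ± 1.11, adjusted p = 9.4e-05. Il7r differed by -4.85 ± 0.50 in long-term culture and by -1.36 ± 0.43 (adjusted p = 0.018) at week 1 (change -3.49 ± 0.62, adjusted p = 0.014). At week 1 Il7r had 102, 140.4, 36.4, 63.6 and 45.2 CPM in CD8 libraries, against 192, 398, 125, 129 and 155 CPM in CD4 libraries. Gpr183 differed by -2.22 ± 0.33 and by -0.07 ± 0.32 (adjusted p = 0.87) (change -2.14 ± 0.45, adjusted p = 0.037), and Cdc25b by -1.69 ± 0.24 and by -0.15 ± 0.23 (adjusted p = 0.63) (change -1.54 ± 0.33, adjusted p = 0.039). The granzyme cluster was called in long-term culture and not at week 1, with week 1 log2 fold changes of 2.47 ± 1.65 (adjusted p = 0.25) for Gzmg and 1.11 ± 1.30 (adjusted p = 0.52) for Gzmd, but the change of the difference did not pass for either (adjusted p = 0.46 and 0.12). The changes of Il1rl1 and Il7r held when each of the 20 libraries was left out in turn, whereas those of Gpr183 and Cdc25b had an adjusted p of 0.082 each without CD8 week 1 replicate 2.

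Among the 10 genes called in opposite directions, Asph, Tmem176b, Tmem176a, Jag2 and Pou2f1 had the largest change of the difference. Tmem176b, a gene of intracellular ion channels in dendritic and Th17 cells, had 110.0, 92.5, 149.7, 169.8 and 100.1 CPM in CD8 libraries, against 26.9, 77.0, 24.1, 17.6 and 55.0 CPM in CD4 libraries in long-term culture, and 2.33, 3.45, 11.8, 6.54 and 6.09 CPM in CD8 and 12.6, 22.99, 11.99, 13.3 and 8.996 CPM in CD4 libraries at week 1. Its log2 fold change was 1.63 ± 0.41 in long-term culture and -1.21 ± 0.42 (adjusted p = 0.031) at week 1 (change 2.84 ± 0.59, adjusted p = 0.035), and its neighbour Tmem176a gave 1.57 ± 0.40 and -1.21 ± 0.41 (adjusted p = 0.027). Without CD8 week 1 replicate 2 the changes had an adjusted p of 0.077 for both genes. Asph, an aspartyl hydroxylase, had 2.78, 3.77, 2.74, 3.94 and 4.57 CPM in CD8 libraries, against 16.9, 22.1, 15.2, 7.60 and 9.34 CPM in CD4 libraries in long-term culture (log2 fold change -1.996 ± 0.29), and a log2 fold change of 0.90 ± 0.30 (adjusted p = 0.024) at week 1. Jag2, a Notch ligand, gave -0.71 ± 0.23, a call lost without CD8 replicate 3, CD8 replicate 5 or CD4 replicate 4 of the long-term libraries (adjusted p = 0.053 to 0.068), and 1.12 ± 0.23 (adjusted p = 0.0011) at week 1, and Pou2f1 (Oct-1) gave -0.37 ± 0.10 and 0.35 ± 0.10 (adjusted p = 0.0098).

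**Figure D5:**
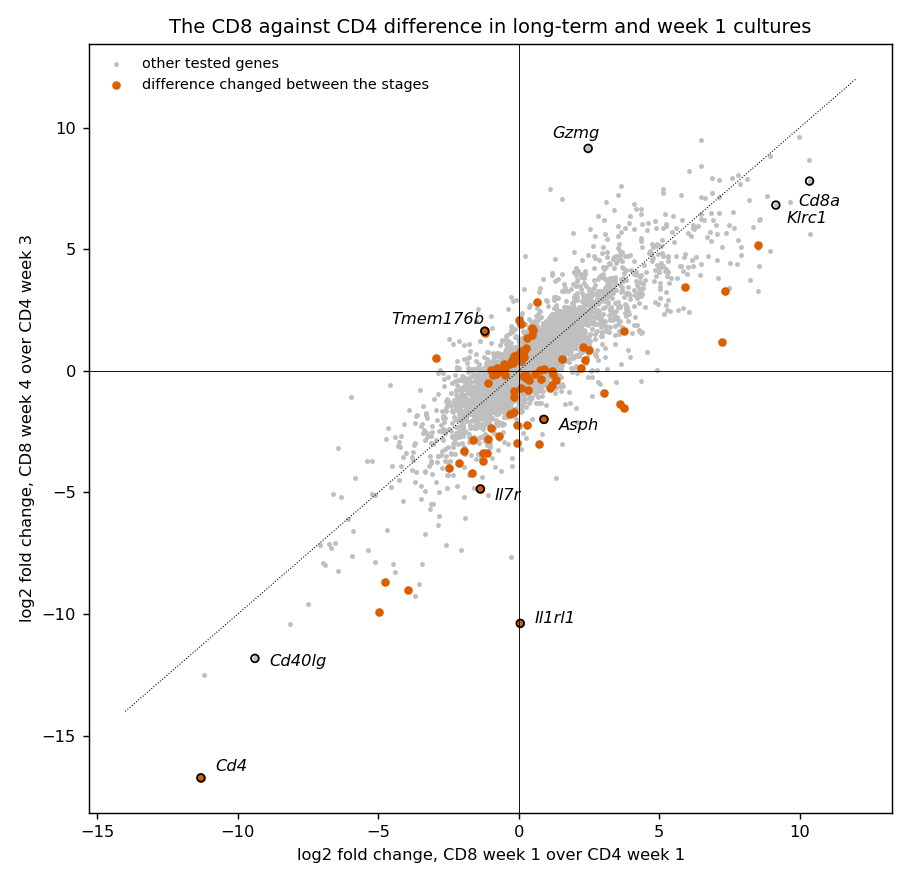
Log2 fold change of CD8 week 4 over CD4 week 3 (vertical) against CD8 week 1 over CD4 week 1 (horizontal) for 13290 tested genes, one point per gene, with the 87 genes whose difference changed between the stages in orange and named genes circled; the dotted line marks equal values. Il1rl1 lies near 0 at week 1 and at -10.38 in long-term culture; positions of genes with 3 or fewer counts in a group, such as Cd4 and Cd40lg, depend on the prior count of the fit.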

How the data were processed

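Poly(A) RNA of sorted T cells was sequenced from 20 libraries. Per the file headers, the authors deposited raw counts per gene made with featureCounts 1.6.3 over exons, with reverse-strand counting, GENCODE M12 and no option for multi-mapping reads; STAR and mm10 are named in the submitters' processing notes. Totals were 13.3 to 28.3 M counts (M for mega). Of 49671 genes, 13290 passed filterByExpr. Group means of all 20 libraries were fitted with edgeR 4.0.16 (TMM, quasi-likelihood F test; R 4.3.3), and p-values were adjusted by Benjamini-Hochberg over all tested genes; DESeq2 1.42.0 and limma 3.58.1 were alternatives. The script was tested on simulated data. CPM use TMM-scaled totals, except marker sums and the values of H2-Aa, Cd74, Tcrg-C1, Tcrg-C4 and Trdc, which use totals. The error of a log2 fold change is |log2 fold change|/√F. Intervals and floors cover counting error only. No 2 libraries agreed within sampling noise (40 pairs within groups). The members and the 36 lists were chosen with earlier results of these data known. Genes were named by a rule: fixed lineage genes, the 10 largest differences each way at 10 CPM or more with no overlap, the 6 at least 2-fold apart with the highest mean CPM each way, up to 5 members of each list each way, and the 5 largest changes among genes called in opposite directions. Ranking by CPM favours long genes. Outside the rule, Cd68, Cd79b, Cish, Fcer1g, Gapdh, H2-Ab1, Hba-a1, Ighm, Il2rg, Klf2, Lag3, Ldhb, Mcl1, Pdcd1, Sh2d1a, Slfn2 and Socs2 were chosen after their values were seen, as were Hcst, Tyrobp, H2-Aa, Cd74, Tcrg-C1, Tcrg-C4 and Trdc. Promoter windows of Cd4, Cd8b1 and Cd40lg were not used here. A few genes are not reported here.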

Additional observations from a re-analysis of the deposited data

Results flagged for a closer look

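For genes with a group mean of at least 10 CPM, a library was looked at again where its gap to the nearest of the other 4 of its group exceeded Dixon's 95% value of 0.71 of the whole range on the log2(CPM + 0.5) scale, which chance gives in about 1 of 20 groups. Many genes were screened in this way, so that chance alone gives a number of such gaps. Whether those listed exceed that number was not tested. Among CD4 libraries, replicate 2 was low for Tcf7 (304 CPM, others 707 to 982 CPM), Ccr7 (186 CPM, others 352 to 457 CPM), Il6st (60.3 CPM, others 102 to 115 CPM), St6gal1 (97.0 CPM, others 163 to 193 CPM) and Tnfrsf25 (31.6 CPM, others 54.2 to 66.6 CPM), and high for Serpinb9 (47.6 CPM, others 27.1 to 30.9 CPM). Replicate 5 was low for Cst7 (36.5 CPM, others 50.0 to 53.4 CPM), Ctsw (65.0 CPM, others 117 to 139 CPM) and Socs2 (79.1 CPM, others 173 to 198 CPM), and high for Ly6c1 (152 CPM, others 40.3 to 59.2 CPM) and Stc1 (44.4 CPM, others 27.2 to 28.7 CPM). CD4 replicate 1 was high for Lck (634 CPM, others 539 to 559 CPM). Among CD8 libraries, replicate 5 was high for Myb (39.0 CPM, others 5.74 to 8.96 CPM) and Il10rb (137.5 CPM, others 114 to 119 CPM), and replicate 3 was low for Cbx7 (118 CPM, others 146 to 159.5 CPM). For the gene with the largest such gap, Stc1, the long-term difference was 3 counts in all CD8 libraries against at least 27.2 CPM in each CD4 library, with or without replicate 5.

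The difference between CD8 and CD4 changed from week 1 to long-term culture for 17 of the genes named, by the test of the change itself (edgeR, adjusted over all genes); the change is given as the long-term minus the week 1 log2 fold change. It was negative for Il1rl1 (-10.44, adjusted p = 9.4e-05), Mctp1 (-5.05, adjusted p = 0.0092), Ptgir (-3.93, adjusted p = 0.001), Il7r (-3.49, adjusted p = 0.014), Asph (-2.89, adjusted p = 0.0032), Sytl3 (-2.44, adjusted p = 0.027), St6gal1 (-2.23, adjusted p = 0.04), Gpr183 (-2.14, adjusted p = 0.037), Jag2 (-1.83, adjusted p = 0.014), Ikzf2 (-1.65, adjusted p = 0.036), Cdc25b (-1.54, adjusted p = 0.039) and Pou2f1 (-0.72, adjusted p = 0.027). It was also negative for Cd4 (-5.42, adjusted p = 0.034) and Stc1 (-4.96, adjusted p = 0.035). For Il1rl1, Cd4 and Stc1 the size of the change depends on the prior count, because 3 or fewer counts stood in the long-term CD8 libraries. Mctp1 and Ptgir were near 0 there as well, with means of 0.046 and 0.085 CPM. The change was positive for Tmem176b (2.84, adjusted p = 0.035), Tmem176a (2.78, adjusted p = 0.034) and Lck (0.38, adjusted p = 0.041). The calls of Il1rl1, Mctp1, Ptgir, Il7r, Asph and Jag2 held when each of the 20 libraries was left out in turn. The other 11 were lost in some of these 20 fits: Lck and St6gal1 in 15 (adjusted p up to 0.089 and 0.083), Cdc25b and Ikzf2 in 14 (up to 0.082 and 0.075), Gpr183 and Tmem176b in 13 (up to 0.082 and 0.077), Tmem176a in 12 (up to 0.077), Stc1 in 11 (up to 0.21), Cd4 and Pou2f1 in 6 (up to 0.069 and 0.059) and Sytl3 in 3 (up to 0.054). Cell type and culture length changed together in the long-term libraries, so their parts in these changes cannot be told apart.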

How the results depend on the processing

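Of the 152 called genes named, 109 kept their call and none changed direction under all 22 alternatives of the long-term comparison (other scalings, tools, filters, sample sets and each library left out). Calls were lost most often with CD8 replicates 4 and 5 alone (35 genes), a test against 1.5-fold (27) and without CD8 replicates 1 and 2 (15), in fits with fewer libraries or a stricter null. Leaving out 1 library cost the call of 13 genes: Il6ra in 8 of 10 fits (adjusted p up to 0.097), Tcf7 in 7 (0.10) and Socs2 in 7 (0.086), Bcl6 in 6 (0.12), Pdcd1 in 5 (0.14), Scd2 in 5 (0.075) and Cish in 5 (0.071), Il2rb in 4 (0.074), Cd28 in 3 (0.097) and Jag2 in 3 (0.068), and in 1 fit each Nfil3 (0.052, without CD8 replicate 2), S1pr1 (0.051, without CD8 replicate 1) and Zfp683 (0.080, without CD4 replicate 2).

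Genes higher in CD8 numbered 2349, with 1906 to 3018 when 1 library was left out, 907 against 1.5-fold, 1043 with CD8 replicates 4 and 5 alone and 1383 without CD8 replicates 1 and 2; genes lower in CD8 numbered 1993, with 1524 to 2417, 496, 660 and 1202 under these settings. Those at least 2-fold higher numbered 1174 (1011 to 1618 with 1 library left out, 630 with a 5 CPM filter, 732 with CD8 replicates 4 and 5 alone), and those at least 2-fold lower 662 (576 to 764, 339 and 356). At week 1 the counts stayed within 1.5 times, at 2187 to 2962 higher and 2113 to 3088 lower with 1 library left out. The change between stages was least stable: 33 positive genes became 156 with DESeq2, 20 without a filter and 10 to 156 with 1 library left out, and 54 negative genes became 178, 35 and 18 to 161; the highest counts came without CD8 week 1 replicate 3. The cause was not tested.

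Some genes that did not pass changed sign. With CD8 replicates 4 and 5 alone the log2 fold changes were -0.53 for Ifng, 0.15 for Il18r1, -0.78 for Kit, -0.18 for Prdm1 and -0.0035 for Runx3. Without CD8 replicates 1 and 2 they were -0.46, 0.14, -0.54, -0.37 and -0.050. With 1 library left out, values ran from -0.20 to 1.68 for Ifng, -0.16 to 0.040 for Il18r1 and -0.27 to 0.39 for Kit.

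The labels give no replicate numbers that groups share, but title numbers of week 1 and long-term libraries neighbour each other within a lineage. The deviations from the group means correlated above 0.1 in 7 of these 10 pairs (-0.113 to 0.469), and 4 of 10 long-term libraries correlated best with their neighbour, a hint from the data and not the design. With neighbouring title numbers as a replicate block, added after seeing the data, the change between stages was called positive for 75 and negative for 103 genes. The block kept 68 of the 87 calls made without it, and the calls of 16 of the 17 genes named, all but Lck. List counts without CD4 replicate 2 or without CD8 replicates 1 and 2 were added after seeing the data. At 13.3 to 28.3 M counts, a gene with no count in a group is bounded at 3 counts over its 5 libraries.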

Other observations

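T cell receptor V segments differed between the lineages in both directions: 42 of 79 tested V segments (53.2%) were called, 23 higher and 19 lower in CD8, against 33.4% of 11444 protein-coding genes. Trbv12-1 had 19.1, 15.9, 18.3, 17.6 and 17.8 CPM in CD8 libraries, against 2.99, 2.15, 1.33, 1.46 and 1.69 CPM in CD4 libraries (log2 fold change 3.20 ± 0.19, adjusted p = 1.2e-09, edgeR's quasi-likelihood test), and Trbv12-2, its close copy, was higher by 2.48 ± 0.17. Trbv31, the segment downstream of the beta constant genes, ran the other way at 4.68, 4.05, 5.23, 4.86 and 4.96 CPM in CD8 libraries, against 23.3, 19.0, 16.6, 18.2 and 17.4 CPM in CD4 libraries (log2 fold change -1.99 ± 0.13, adjusted p = 2.0e-09). At week 1 the log2 fold changes were 2.96 for Trbv12-1 and -2.27 for Trbv31. The most read Trbv segment took 10.5% to 12.4% of Trbv counts in CD8 libraries and 12.3% to 14.5% in CD4 libraries, over 4985 to 9057 counts a library, and was Trbv13-2 in 8 of the 10 libraries. Gamma chain genes were also read, in both lineages and not in 1 direction. Trgv2 had 9.25, 11.99, 21.6, 11.01 and 12.1 CPM in CD8 libraries, against 0.714, 0.615, 0.428, 0.911 and 0.127 CPM in CD4 libraries (log2 fold change 4.55 ± 0.45, adjusted p = 5.1e-07), and Tcrg-C2 was higher by 2.80 ± 0.56. Tcrg-C4 had 2.30 to 5.79 CPM in CD8 and 0.375 to 2.09 CPM in CD4 libraries. Tcrg-C1 leaned the other way with overlapping libraries, at 21.2, 18.8, 48.1, 39.4 and 41.0 CPM in CD8 libraries, against 69.1, 56.8, 59.0, 67.4 and 37.4 CPM in CD4 libraries. The delta chain gene Trdc had 4.78 to 13.9 CPM in CD8 and 5.16 to 10.5 CPM in CD4 libraries.

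Several noncoding and unnamed genes separated the libraries of the lineages, and were chosen after their values were seen. Gm44174 had 14.4, 9.91, 43.3, 29.3 and 30.1 CPM in CD8 libraries and 3 counts in all CD4 libraries, a ratio, CD8 over CD4, of 956 (95% counting interval 327 to 4634). Gm17767 had 155, 113, 257, 215 and 179 CPM in CD8 libraries, against 9.87, 13.1, 12.5, 7.01 and 6.59 CPM in CD4 libraries (log2 fold change 4.23 ± 0.44, adjusted p = 9.0e-07). On the CD4 side, Gm15708 had 0.571, 0.338, 0.931, 0.924 and 1.26 CPM in CD8 libraries, against 32.9, 19.4, 27.1, 31.2 and 30.8 CPM in CD4 libraries (log2 fold change -5.12 ± 0.41, adjusted p = 4.1e-08) and A630023P12Rik had 2.78, 1.46, 4.76, 7.31 and 5.44 CPM in CD8 libraries, against 34.4, 16.7, 30.7, 34.7 and 53.9 CPM in CD4 libraries (log2 fold change -2.96 ± 0.40, adjusted p = 1.9e-05). Of 276 tested lincRNA genes, 54 were higher and 63 lower in CD8 (42.4% called, against 32.7% of all tested genes). Kit, the stem cell factor receptor, had 35.4, 28.6, 18.9, 7.80 and 16.9 CPM in CD8 libraries, against 23.04, 40.6, 25.3, 15.0 and 2.15 CPM in CD4 libraries in long-term culture and did not pass (log2 fold change 0.02 ± 0.75, adjusted p = 0.99), and at week 1 had 71.2, 57.9, 7.15, 14.9 and 21.6 CPM in CD8 libraries, against 0.0415, 0.282, 2.00, 3.14 and 0.167 CPM in CD4 libraries; the test of the change between stages gave an adjusted p of 0.058.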
